A study of Caenorhabditis elegans with 3 samples.

Results

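ATP-binding cassette (ABC) transporters of the nematode Caenorhabditis elegans were followed across their subfamilies in glp-4 larvae. The members were the probes that the platform annotation pairs with exactly 1 gene named by a number in the pgp, haf, mrp, abt, abcf, abch, wht, pmp or cft class, or named ced-7. The rule used names alone and no measured value, but it was chosen with earlier results of these data known. It took 54 of the 21632 probes and gave 49 genes. These were 14 pgp genes, 6 haf, 6 mrp, 7 abt genes with ced-7 counted among them, 5 pmp, 7 wht, 2 abcf, 1 cft and 1 abch. All 49 were measured on all 3 arrays, so none was lost to the filter on missing values, and 5 of them had 2 probes, whose values were averaged. RefSeq (assembly WBcel235) lists abt-3, abt-6 and wht-9, 3 of the 49, as pseudogenes. It holds 57 genes with such symbols, and 8 of these were not analysed here as members: abcf-2, haf-6, haf-7, mrp-7, mrp-8, pgp-15, wht-7 and wht-8.

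Total RNA was measured on 3 two-colour arrays, 1 each for preps 1, 3 and 4 of glp-4 worms in the L3 larval stage. Every array also carried a wild-type mixed reference RNA. The labels name no allele, temperature, culture or make-up of the reference, and do not say whether the preps were separate cultures, so the p-values reflect no more than how far these 3 preps scatter, part of which may be technical. Mutants of glp-4, a tRNA synthetase gene, are known for a germ line that hardly grows at high temperature. The preps differ from the reference in genotype and, if mixed means mixed stages, in stage at once, and the 2 cannot be told apart. Values below are log2 ratios of glp-4 L3 to reference, centred on the array median. The labels name no dye, so this direction is only the likely one: glp-4 is labelled as channel 2, and germ line genes lie where few germ cells would put them. If the ratio ran the other way, every direction below would turn.

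The prep 1 array had the narrowest spread of log2 ratios, with an SD over probes of 0.71, against 0.963 for prep 3 and 1.14 for prep 4. Between 21239 and 21462 probes had a value on each array. The correlation across probes was 0.835 between preps 3 and 4, and 0.645 and 0.599 between each of these and prep 1. The titles of preps 3 and 4 share a letter code and a date-like string, and both differ in the title of prep 1. The labels do not say what either stands for. All 12 germ line markers were lower in glp-4 L3 (median -2.92), on the side that such genes had helped to choose. Of the intestine markers 7 of 10 were higher and none lower (median 1.83), and of the muscle markers 6 of 7 were higher and none lower (median 1.58). The neuron markers had 0 of 8 higher and 1 lower (median -0.22).

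ABC proteins share a nucleotide-binding domain that hydrolyses ATP, and most use it to move a substrate across a membrane. The subfamilies differ in build and place. P-glycoproteins (pgp, of the ABCB group) are full-length exporters of hydrophobic compounds, well known from drug resistance, and several act in the worm's intestine and excretory cell. The haf genes encode shorter ABCB proteins that work as dimers in mitochondria or lysosome-related organelles. The mrp genes and cft-1 belong to the ABCC group of organic anion and conjugate exporters, abt genes and ced-7 to the lipid-linked ABCA group, pmp genes to the peroxisomal ABCD group, and wht genes to the ABCG group named after the fly gene white. The ABCF proteins have no membrane-spanning part and are tied to translation instead of transport.

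ABC transporter genes lay mostly above the reference. Of the 49, 18 were higher in glp-4 L3 and none was lower (limma, Benjamini-Hochberg adjusted p under 0.05 over all features). That is 36.7% of the genes higher, against 8.25% of the 19592 features tested; 8.36% of all features were lower. With no adjustment, 27 were higher and 3 lower at a limma p under 0.05, against 17.1% and 18.2% of all features. Those past the adjusted threshold comprised 8 pgp, 4 pmp, 3 mrp and 2 haf genes and abt-4, and 16 of them differed at least 2-fold (6.04% of all features were higher by both criteria). No wht, abcf, cft or abch gene passed. The ratio was above 0 on all 3 arrays for 30 genes, or 61.2%, against 29.1% of all features, and below 0 on all 3 for 6, against a background of 29.3%. Over the 49 genes the arrays of preps 1, 3 and 4 gave medians of 0.27, 0.59 and 0.87, where the medians of all features were 0.00 to 2 decimals.

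The number of calls depended on the preps. Without prep 1 there were 25 higher genes and 2 lower (16.4% and 17.6% of all features), without prep 3 there were 3 higher and 0 lower (0.867% and 1.05%), and without prep 4 there were 11 higher and 0 lower (3.18% and 3.11%). The 3 genes that passed whichever prep was left out were pgp-6, pgp-5 and pmp-1. Without prep 3 they passed narrowly, with limma adjusted p of 0.0462, 0.0448 and 0.0464, and haf-9 narrowly missed at 0.0510.

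**Figure D1:**
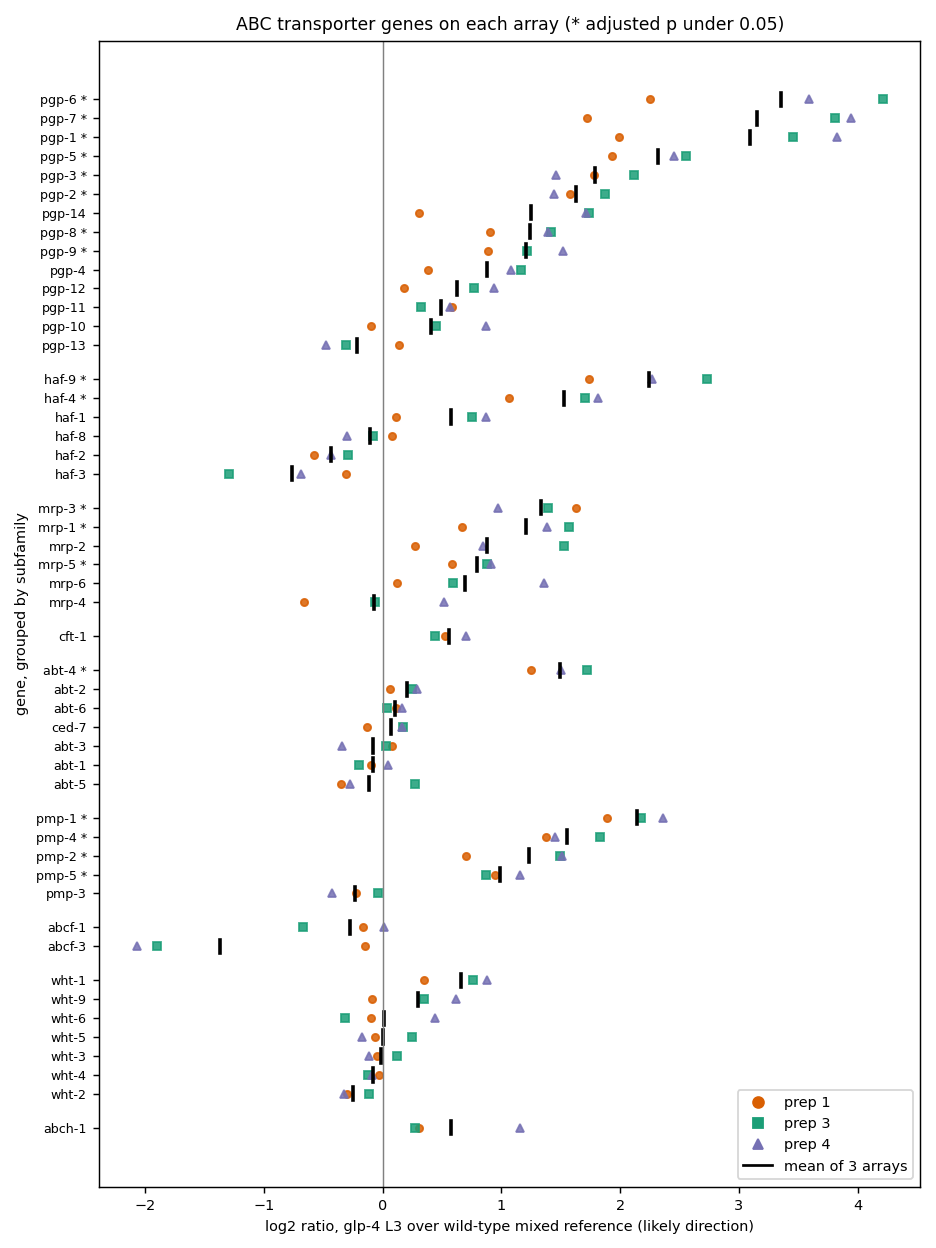
Log2 ratio of each of the 49 ABC transporter genes (rows, grouped by subfamily) on the arrays of prep 1 (circles), prep 3 (squares) and prep 4 (triangles), with the mean as a black bar and an asterisk for limma adjusted p under 0.05. The values of pgp-6, pgp-7 and pgp-1 lie farthest right, with prep 1 lowest in each, and abcf-3 lies farthest left with preps 3 and 4.

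The P-glycoprotein genes reached the highest ratios: 8 of 14 were higher, none was lower, and 12 were above 0 on every array. Their median was 1.24, against 0.00 for all features and 0.20 for the other 35 ABC genes. The gene pgp-6 (T21E8.1) was at 2.25, 4.21 and 3.59 with preps 1, 3 and 4, a mean of 3.35 ± 1.00 (SD, n = 3), or 10.2-fold higher (limma adjusted p = 0.0070). It stood at rank 22 of 14698 named genes ordered from the highest mean. Its neighbour pgp-7 (T21E8.2) was at 1.72, 3.81 and 3.94, a mean of 3.15 ± 1.25 (8.90-fold, limma adjusted p = 0.0125, rank 33). With both genes the prep 1 value was the lowest, well under the other preps. The gene pgp-1 (K08E7.9), which encodes an intestinal P-glycoprotein, was at 1.99, 3.46 and 3.82, a mean of 3.09 ± 0.97 (8.52-fold, limma adjusted p = 0.0078, rank 36).

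Ratios of the next genes were smaller and closer between preps. The gene pgp-5 (C05A9.1), known for its induction by heavy metals and pathogenic bacteria, was at 1.93, 2.56 and 2.46, a mean of 2.32 ± 0.33 (4.98-fold, limma adjusted p = 0.0039). The gene pgp-3 (ZK455.7), which protects against toxic compounds, was at 1.78, 2.12 and 1.46, a mean of 1.78 ± 0.33 (3.44-fold, limma adjusted p = 0.0064). The gene pgp-2 (C34G6.4), needed to form the lysosome-related gut granules of the intestine, was at 1.58, 1.87 and 1.44, a mean of 1.63 ± 0.22 (3.10-fold, limma adjusted p = 0.0061). In pgp-3 and pgp-2 the lowest value came from prep 4, so prep 1 was not the low array throughout. It was the lowest for 14 of the 18 higher genes, and the share over all higher features was not counted. The prep 1 array also had the narrowest spread of log2 ratios over all probes. Whether this accounts for the low values was not tested. The gene pgp-8 (T21E8.3) was at 0.90, 1.42 and 1.396 (mean 1.24 ± 0.29), and pgp-9 (C47A10.1) at 0.89, 1.22 and 1.52 (mean 1.21 ± 0.32), with limma adjusted p of 0.0136 and 0.0156.

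The other 6 pgp genes did not pass. The highest, pgp-14 (F22E10.3), which acts in the lipid barrier of the pharyngeal cuticle, was at 0.31, 1.74 and 1.71, a mean of 1.25 ± 0.82. It was thus near 0 with prep 1 and well above 0 with both others, and its limma adjusted p was 0.0587, or 0.0029 without prep 1. Next came pgp-4 at 0.88 ± 0.43 (limma adjusted p = 0.0519, and 0.0091 without prep 1) and pgp-12, the promoter of which is a standard marker of the excretory canal, at 0.63 ± 0.40 (limma adjusted p = 0.102, and 0.0211 without prep 1). The genes pgp-11 and pgp-10 were at 0.49 ± 0.14 and 0.41 ± 0.49. The lowest, pgp-13 (F22E10.2), was at 0.14, -0.31 and -0.48, a mean of -0.22 ± 0.32, the only pgp gene with a mean below 0. Without preps 1, 3 and 4 in turn, 11, 2 and 6 pgp genes were higher.

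Several members sit side by side in the genome, with 0 other protein-coding genes between them in the RefSeq annotation, and neighbours did not always have like ratios. In the run pgp-5, pgp-8, pgp-7 and pgp-6, all 4 genes were higher, but pgp-8 lay under each neighbour on every array. The ratio of pgp-5 exceeded that of pgp-8 by 1.03, 1.14 and 1.06 log2 units with preps 1, 3 and 4 (mean difference 1.08 ± 0.05, n = 3), and pgp-7 exceeded pgp-8 by 0.82, 2.38 and 2.54. Between pgp-6 and pgp-7 the difference changed sign, at 0.53, 0.41 and -0.35. The pair was therefore not separated beyond the spread between arrays.

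In the run pgp-12, pgp-13 and pgp-14, the middle gene was lowest on all 3 arrays. The gene pgp-14 exceeded pgp-13 by 0.17, 2.05 and 2.18 with preps 1, 3 and 4, so the gap existed mainly with preps 3 and 4. In the pair pgp-3 and pgp-4, pgp-3 was above pgp-4 by 1.39, 0.95 and 0.38, a gap that was smallest with prep 4. The mrp-1 to mrp-2 gap was 0.39, 0.05 and 0.54, and the pmp-1 to pmp-2 gap 1.19, 0.68 and 0.85. An exact two-sided permutation test over 3 arrays cannot go below p = 0.25, so these gaps are given as values only. Close copies can share signal through cross-hybridisation, which was not tested, so ratios of neighbours such as pgp-6 and pgp-7 may not be separate measurements.

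**Figure D2:**
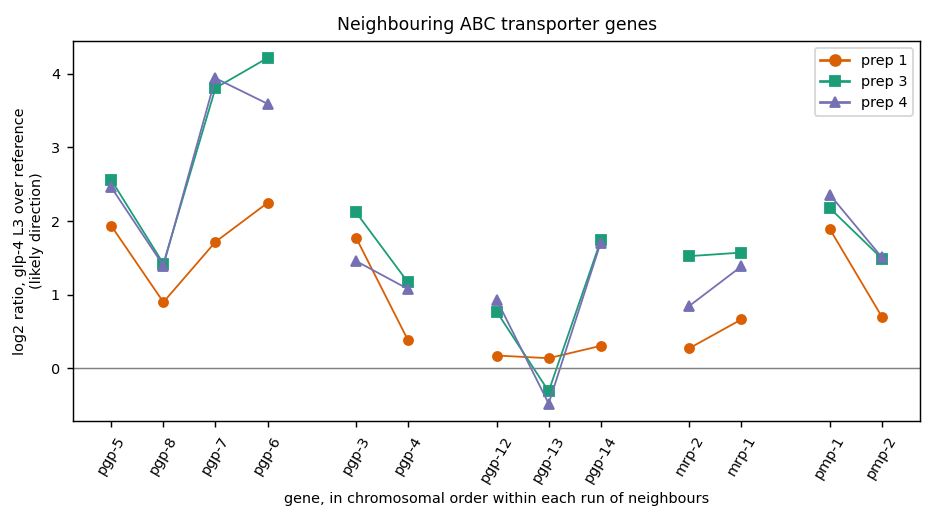
Log2 ratio (vertical axis) of ABC transporter genes that lie side by side, in chromosomal order within each run, with a line for each of preps 1, 3 and 4. The gene pgp-8 lies under both neighbours, at 0.90, 1.42 and 1.396, and the dip at pgp-13 is seen with preps 3 and 4 but hardly with prep 1.

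Of the 5 pmp genes, which encode ABCD proteins of the peroxisome membrane and their relatives, 4 were higher and none was lower, with a median of 1.23. The gene pmp-1 (C44B7.8) was at 1.89, 2.18 and 2.36, a mean of 2.14 ± 0.24 (4.41-fold, limma adjusted p = 0.0037). The gene pmp-4, related to the human gene of adrenoleukodystrophy, was at 1.37, 1.83 and 1.45, a mean of 1.55 ± 0.25 (2.93-fold, limma adjusted p = 0.0070). The gene pmp-2 (C44B7.9) was at 0.70, 1.49 and 1.51, a mean of 1.23 ± 0.46 (2.35-fold, limma adjusted p = 0.0231). All of these were above 0 on every array, and pmp-1 and pmp-4 varied little between preps. The gene pmp-5 (T10H9.5), tied to handling of vitamin B12, was at 0.95, 0.87 and 1.15, a mean of 0.99 ± 0.15 (1.99-fold, limma adjusted p = 0.0180). The exception was pmp-3 (C54G10.3), a gene widely used as a stable reference in worm quantitative PCR, at -0.22, -0.04 and -0.43 (mean -0.23 ± 0.19). Its 95% interval in the limma fit ran from -0.66 to 0.20 (adjusted p = 0.374). Leaving out preps 1, 3 and 4 in turn gave 4, 1 and 2 higher pmp genes.

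Other genes of the peroxisome were set beside the pmp genes. Peroxisomal beta-oxidation shortens fatty acid chains, including those of the ascaroside pheromones, and 9 of its 10 listed genes were higher, none was lower, and the median was 2.10. They included the acyl-CoA oxidase genes acox-1.2 (1.201, 3.50 and 4.15, mean 2.95 ± 1.55), acox-1.5 (mean 2.88 ± 1.06) and acox-1.4 (mean 2.50 ± 0.60), with limma adjusted p of 0.0262, 0.0112 and 0.0060. The 1 gene that did not pass was acox-1.6, at 0.22 ± 0.19. Of 11 prx genes, which encode the machinery that builds peroxisomes and imports their proteins, 4 were higher and none was lower (median 0.80). Those with the largest change were prx-11 (1.63 ± 0.24), prx-12 (1.22 ± 0.39) and prx-3 (1.16 ± 0.43).

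Of the 6 mrp genes, which encode multidrug resistance proteins, 3 were higher and none was lower (median 0.84). The gene mrp-3 (E03G2.2) was at 1.63, 1.39 and 0.97, a mean of 1.33 ± 0.34 (2.51-fold, limma adjusted p = 0.0125). It was highest with prep 1, unlike most higher members. Its adjusted p was 0.0577 when the arrays were scaled to the same spread. The gene mrp-1 (F57C12.5), which protects against cadmium and arsenite, was at 0.67, 1.57 and 1.38, a mean of 1.21 ± 0.48 (2.31-fold, limma adjusted p = 0.0257). The gene mrp-5 (F14F4.3), an exporter of heme from the intestine, was at 0.59, 0.88 and 0.91, a mean of 0.79 ± 0.18 (1.73-fold, limma adjusted p = 0.0349). The genes that did not pass were mrp-2 (0.27, 1.52 and 0.85), mrp-6 (mean 0.69 ± 0.62) and mrp-4. The last, named in gut granule formation, was on both sides of the reference at -0.66, -0.06 and 0.52 (mean -0.07 ± 0.59). The higher mrp genes numbered 5, 0 and 1 without preps 1, 3 and 4. The related cft-1 (C18C4.2), named for its likeness to the cystic fibrosis chloride channel, was at 0.53, 0.44 and 0.70, above 0 on each array without passing (mean 0.55 ± 0.13, limma adjusted p = 0.078).

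Metal and heme genes were set beside mrp-1, mrp-5 and pgp-5. In the metal response list, 2 of 5 measured genes were higher and none lower: the metallothionein gene mtl-2 (1.24 ± 0.25) and the cadmium-response gene cdr-1 (1.04 ± 0.44), beside a list median of 0.61. Of 5 measured heme genes none passed in the limma test, with 1 higher at an unadjusted p under 0.05. The prep 4 array stood apart for some of them, in both directions. The gene hrg-3, which encodes a heme carrier secreted by the intestine, was at 0.68, 0.91 and 5.13. The heme importer gene hrg-4 was at 0.78, 0.87 and 3.90, while hrg-7 was at 2.30, 2.72 and -1.68. The others were hrg-1 at 0.29, -1.15 and -1.43 and hrg-9 at 0.18, -0.08 and -0.13. List medians were 0.68, 0.87 and -0.13 with preps 1, 3 and 4. The mrp-5 ratio did not share the rise of hrg-3 and hrg-4 between preps 3 and 4.

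The haf genes fell on both sides of the reference, with 2 of 6 higher, none lower and a median of 0.24. The gene haf-9 (ZK484.2) was at 1.74, 2.73 and 2.26, a mean of 2.24 ± 0.50 (4.74-fold, limma adjusted p = 0.0059). Its partner haf-4 (W04C9.1) was at 1.06, 1.71 and 1.81, a mean of 1.53 ± 0.40 (2.88-fold, limma adjusted p = 0.0109). The proteins of these genes form a dimer on granules of the intestine, and the genes were higher on every array. The mitochondrial peptide exporter gene haf-1 (C30H6.6), which takes part in the mitochondrial unfolded protein response, was at 0.58 ± 0.41 (limma adjusted p = 0.124, and 0.0242 without prep 1). At the other end, haf-3 (F57A10.3) was at -0.31, -1.297 and -0.69, a mean of -0.76 ± 0.50 (limma adjusted p = 0.085, and 0.0240 without prep 1). It was below the reference on each array, as was haf-2 (mean -0.43 ± 0.14, limma adjusted p = 0.131), and haf-8 was at -0.10 ± 0.19. In the haf class, 3, 0 and 1 genes were higher and 1, 0 and 0 lower without preps 1, 3 and 4.

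Of 7 measured genes of the gut granule list, 2 were higher and 1 was lower (median 0.52). The zinc transporter gene cdf-2 (1.23 ± 0.10) and glo-3 (1.14 ± 0.46) were higher, and glo-2 was lower (-0.73 ± 0.24, limma adjusted p = 0.0496). Among ABC genes tied to gut granule formation, pgp-2 was higher, mrp-4 was near 0 and wht-2 was at -0.25 ± 0.11. The genes haf-4 and haf-9, of intestinal granules that may not be the same ones, were higher. Of 7 measured genes of the mitochondrial unfolded protein response none passed in the limma test (2 higher and 1 lower at an unadjusted p under 0.05). Its regulator gene atfs-1 was at 0.61 ± 0.35.

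Among the abt genes and ced-7, 1 of 7 was higher and none was lower (median 0.07). The gene abt-4 (Y39D8C.1) was at 1.25, 1.72 and 1.504, a mean of 1.49 ± 0.23 (2.81-fold, limma adjusted p = 0.0075). Its 2 probes had means of 1.47 and 1.51, and each passed alone, but the gene did not pass without prep 3 (limma adjusted p = 0.0815). The other 6 genes had means between -0.12 and 0.20 and included ced-7 (C48B4.4), which acts in the engulfment of dying cells. The ced-7 values were -0.13, 0.17 and 0.16 (mean 0.07 ± 0.17, 95% interval -0.36 to 0.49). The lowest was abt-5 (Y53C10A.9), at -0.35, 0.27 and -0.28. Of 8 measured engulfment partners of ced-7, 1 was higher and none lower (median -0.24). It was the integrin gene ina-1 (1.26 ± 0.27), while the receptor gene ced-1 and the adaptor gene ced-6 were at -0.28 ± 0.18 and -0.23 ± 0.13.

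None of the 7 wht genes passed in the limma test, with 1 higher and 0 lower at an unadjusted p under 0.05, and their median was 0.00. The highest was wht-1 (C05D10.3), at 0.35, 0.76 and 0.88, a mean of 0.66 ± 0.28 (limma adjusted p = 0.0682, 0.0412 after quantile normalization and 0.0232 without prep 1). The lowest was wht-2 (C10C6.5), known for its part in gut granule formation, at -0.30, -0.12 and -0.32. The 5 others had means from -0.08 to 0.29, and wht-5, for instance, had a 95% interval from -0.44 to 0.45. A p over the threshold does not show that these genes were unchanged, but the 95% intervals of all except wht-1 leave out a 2-fold difference in either direction.

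Both measured ABCF genes had means below 0, but only abcf-3 was below 0 on every array. The gene abcf-3 (F42A10.1), which acts with gcn-1 to keep the translation factor eIF2 phosphorylated, was at -0.14, -1.90 and -2.07, a mean of -1.37 ± 1.07. This was the lowest mean of the 49 genes, near 0 with prep 1 and far under the reference with preps 3 and 4. It did not pass (limma adjusted p = 0.0783) except without prep 1 (adjusted p = 0.0022) or with array weights (adjusted p = 0.0055). The gene abcf-1 (F18E2.2) was at -0.17, -0.67 and 0.01. Of the translation partners, gcn-2 and ifg-1 were measured, at 0.17 ± 0.06 and 0.54 ± 0.21, and neither passed. The single abch gene, abch-1 (C56E6.5), was at 0.31, 0.27 and 1.15, highest with prep 4 (mean 0.58 ± 0.50, limma adjusted p = 0.149).

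Set side by side, the medians of the 6 subfamilies with at least 5 genes kept the same order on all 3 arrays (pgp and pmp, mrp, haf, the abt group, wht), apart from pgp and pmp, which changed places. The pgp and pmp medians were within 0.09 of each other on every array (difference -0.05, 0.09 and 0.00 with preps 1, 3 and 4). The pgp median exceeded the mrp median by 0.46, 0.44 and 0.51, the haf median by 0.80, 1.25 and 1.17, and the wht median by 0.96, 1.46 and 1.54. The mrp median exceeded the haf median by 0.34, 0.80 and 0.66. Between haf and the abt group the gap was only 0.03, 0.16 and 0.12, less than the range of the members of either. Members are not replicates and the subfamilies were compared with earlier results known, so no p is given for these gaps. The pgp means ran from -0.22 to 3.35, wider than any gap between these medians.

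**Figure D3:**
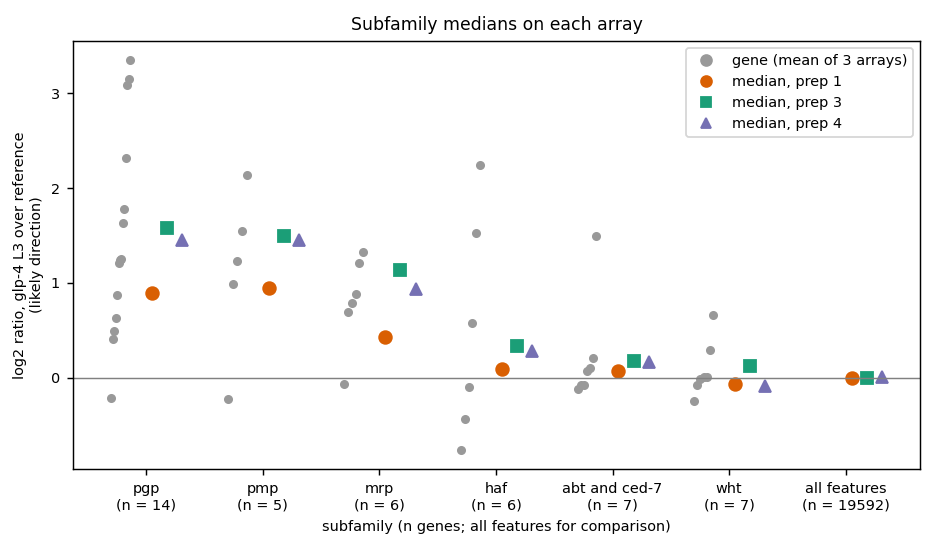
Log2 ratio by subfamily (horizontal axis, with the number of genes), as means of the 3 arrays for each gene (grey points) and as the median over genes on the arrays of preps 1, 3 and 4 (coloured symbols), with all 19592 features at the right. The pgp and pmp medians lie between 0.89 and 1.58, and those of wht between -0.09 and 0.12.

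Tissue markers also differed from the reference on these arrays. Many of the higher members, among them pgp-1, pgp-2, haf-4, haf-9 and mrp-5, are known from the intestine. Most intestine markers were also high, as were most muscle markers. The peptide transporter gene pept-1 was at 2.29, 2.99 and 2.92, the ion exchanger gene nhx-2 at 2.24, 2.46 and 2.63, and the intestinal actin gene act-5 at 2.50, 2.23 and 2.51. The 10 intestine markers had medians of 1.92, 1.79 and 1.98 on the arrays of preps 1, 3 and 4, beside pgp medians of 0.89, 1.58 and 1.45. Prep 1, the array with the narrowest spread over all probes, gave the lowest value for 6 of the 10, and for 5 of the 7 that were higher. The intestinal regulator gene elt-2 was at 0.90, 0.83 and 0.61 (mean 0.78 ± 0.15, limma adjusted p = 0.0344). Means of the 10 ran from -0.39 (asp-1) to 2.73 (pept-1). The genes asp-1, elt-7 and cpr-6 did not pass, and cpr-6 was at 1.87, -0.14 and -0.84. More cells of a type and more RNA per cell cannot be told apart in RNA of whole animals, and the part of either in these ratios was not tested.

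Of 6 measured excretory cell markers, 2 were higher and 1 was lower (median 0.08): the aquaporin gene aqp-8 (1.12 ± 0.46) and the proton pump gene vha-5 (0.94 ± 0.26) were higher, and sulp-5 was lower (-1.59 ± 0.90). The pharynx markers had 0 of 4 past the threshold in the limma test (0 at an unadjusted p under 0.05) and a median of 0.31. Prep 1 gave them a median of -0.30, prep 3 one of 0.62 and prep 4 one of 0.65, and pgp-14 was also high with preps 3 and 4 alone, and their part in that ratio was not tested. Of 6 epidermis markers 1 was higher and none lower (median 0.15), with medians of 1.21, 0.19 and -0.20 on the arrays of preps 1, 3 and 4. Prep 1 stood far above the other preps for bli-1 (3.66, 0.46 and 0.11) and col-19 (1.83, -2.78 and -3.06). For elt-3 it was the lowest (-0.46, -0.07 and -0.16). Of 8 RNAi genes, listed together as systemic RNAi, 1 was lower and none higher (median -0.07): rde-4 (-0.69 ± 0.14). The sid and rsd genes of that list did not pass.

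**Figure D4:**
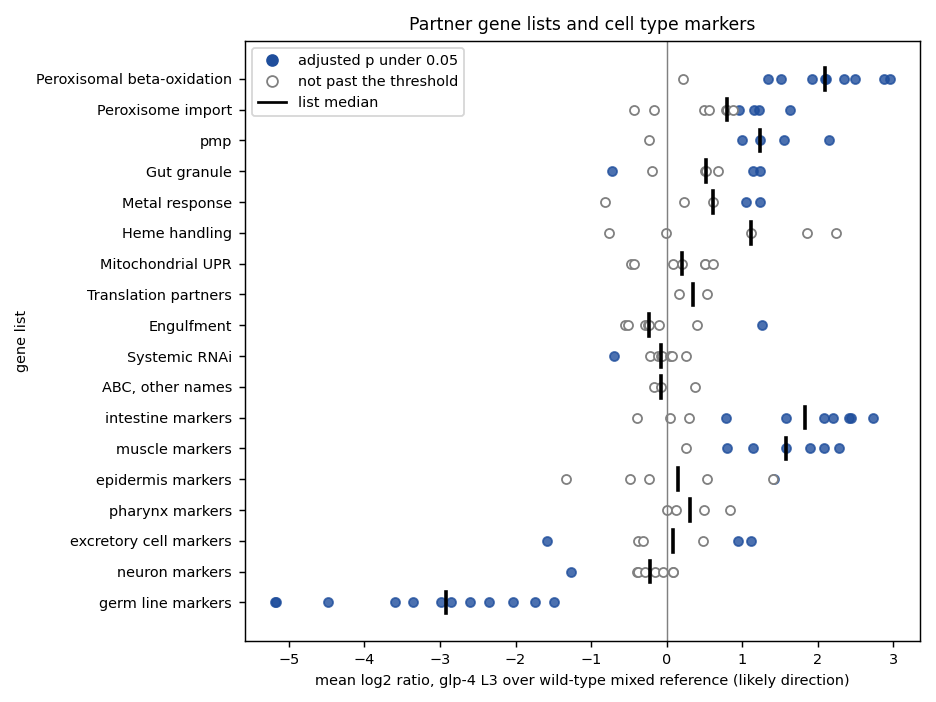
Mean log2 ratio (horizontal axis) of each measured gene of the partner lists, the pmp genes and the cell type markers (rows), filled where limma adjusted p was under 0.05, with the list median as a black bar. The 9 higher genes of peroxisomal beta-oxidation lie right of 0 around a median of 2.10, and the 12 germ line markers lie left of 0 around -2.92.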

How the data were processed

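The value table deposited by the authors holds log2 ratios between the channels of an array. This was read from its numbers: for ratios below 1, 100% were log2 values of a ratio rounded to 3 decimals (tolerance 0.01 thousandths). How the arrays were background-corrected and normalized is not given in the sources used here. No intensities were used, so dim probes could not be set apart. The medians before centring were -0.0072, -0.0247 and -0.0262 for preps 1, 3 and 4.

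The array median was subtracted and probes of the same gene were averaged. Of 21632 probes, 16450 have 1 gene in the annotation, 247 several and 4935 none. RefSeq names were taken by gene number for 16360 probes and by accession for 8, while 82 (pmp-4 among them) kept the annotation's name. The 19592 features with values on all 3 arrays, 14698 of them named genes, were tested against 0 with limma 3.58.1 in R 4.3.3 (lmFit, eBayes, Benjamini-Hochberg, threshold 0.05), after tests on simulated data. The reference counts as 1 control RNA, so its own spread is left out.

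Members, partner lists and markers were chosen with earlier results of these data known. Every member may be named. Those past the threshold and the highest and lowest others of each subfamily have their array values, and up to 3 genes of each partner list past the threshold in each direction are named. Other partner and marker genes, among them acox-1.6, hrg-3, hrg-4, atfs-1, ced-1 and ced-6, were named after their values were seen. Alternatives were other scalings, a looser filter on missing values, single probes, a robust prior, array weights, a 2-fold limit and leaving out a prep.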

Additional observations from a re-analysis of the deposited data

How the results depend on the processing

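The count of 18 higher ABC genes was 18 to 21 with values as deposited, equal array spread, quantile normalization, 2 arrays as the minimum, each probe alone or a robust prior, and 26 with array weights. Against a 2-fold limit it was 3, where 0.796% of all features were higher. The share of all features called higher ran from 7.93% (equal array spread) to 10.2% (quantile normalization) under the settings giving 18 to 21 genes. It was 8.25% as first processed and 20.1% with array weights. Leaving out each prep gave 3 (without prep 3) to 25 (without prep 1) higher genes and 0 to 2 lower, and array weights gave 2 lower, abcf-3 and haf-3. Over all features the 1617 higher and 1638 lower became 156 and 178 against the 2-fold limit, 3938 and 4160 with array weights, 171 to 3219 higher and 207 to 3468 lower with a prep left out. The cause was not tested. The haf median of 0.24 was 0.58 with each probe alone, where haf-4 counts with 2 probes. The wht median of 0.00 changed sign between settings, from -0.06 to 0.04. No member past the threshold changed direction under any setting. No paired analysis was possible because the series has 1 group. Signal over background is unknown, so which ratios near 0 come from dim probes cannot be told.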

Other observations

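Of the ABC genes with names outside the classes studied, 3 of 4 were measured and none passed in the limma test (0 at an unadjusted p under 0.05). The cadmium and phytochelatin transporter gene hmt-1 was at -0.13, -0.20 and 0.12 with preps 1, 3 and 4. The gene abce-1, which acts in ribosome recycling, was at -0.03, -0.01 and -0.45, and abcx-1 was at -0.27, 0.89 and 0.50. A probe shared by abcf-2 and another gene was at -0.61, -0.23 and -0.39, and its signal cannot be assigned to either gene.

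For the 5 genes with 2 probes, the widest gap between probes on any array ran from 0.32 log2 units (pmp-4) to 0.76 (ced-7). The means of the 2 ced-7 probes were 0.26 and -0.12, on opposite sides of the reference, and neither passed. Both probes of abt-4, haf-4, pmp-2 and pmp-4 passed when tested alone.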
